A study of Mus musculus with 6 samples.

Results

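The genes described here encode interleukin-10 (IL-10), its receptor, the kinases and the transcription factor that carry its signal, and 3 SOCS-family inhibitors that the same kind of signal induces. They are Il10, Il10ra, Il10rb, Jak1, Tyk2, Stat3, Socs1, Socs3 and Cish, chosen by name, and they are 9 of the 54532 genes in the deposited table. RNA was sequenced from wild-type mouse primary macrophages in 6 libraries. In 3 of them the cells had received rmMETRNL, a treatment that the labels name after METRNL (meteorin-like, a secreted protein), and in the other 3 they had received vehicle, with a pretreatment of 6 h. All 6 were then challenged with the yeast Candida albicans for 6 h, so the comparison is between pretreatments and holds no unchallenged cells. The labels give neither the animals nor the tissue the macrophages came from, so a p-value sets a difference against the scatter among 6 libraries that may be technical repeats. The table's column names do not spell out the treatment. The columns that carry the first letter of rmMETRNL were taken as the rmMETRNL libraries, and the sign of each difference depends on this.

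IL-10 is a cytokine that macrophages release after they have met microbes, and it restrains the production of inflammatory cytokines by the same and neighbouring cells. It binds a receptor made of IL10RA, the chain specific to IL-10, and IL10RB, a chain shared with other cytokines of the family. The kinases JAK1 and TYK2 are attached to these chains and phosphorylate STAT3, which enters the nucleus and switches on target genes. Socs3 is among the best-known of those targets. SOCS proteins close the loop: SOCS1 acts mainly on interferon signalling, SOCS3 on receptors of the IL-6 type, and CIS, the product of Cish, on cytokines that use STAT5. The IL-10 receptor itself is known to escape inhibition by SOCS3.

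STAT proteins bind the palindrome TTCNNNGAA, and its matches near the start sites of the SOCS genes are shown because STAT binding is how these genes are known to be switched on. RefSeq promoter windows of 300 bases (GRCm38.p6, 250 bases before the start site and 50 after) were found for 6 of the 9 genes, and not for Il10, Il10ra and Il10rb. A match to TTCNNNGAA occurred in the windows of Socs3 and Cish, and 8.30% of all 32851 windows hold it. The windows of Jak1, Tyk2, Stat3 and Socs1 held none, and none of the 6 windows held an NF-kappaB motif (GGG, any 2 bases, then TTTCC, on either strand), which 1.63% of all windows hold. Capitals mark the motif below. The Socs3 stretch is chr11:117969482-117969550, minus strand, with the motif beginning 154 bases before the RefSeq start site. That site lies 180 bases upstream of the start of the GENCODE coding transcript, so the bases just before this transcript were not scanned. The annotated Socs3 gene reaches 117970047, beyond the motif, and its other transcripts were not compared. The Cish stretch is chr9:107296659-107296678, plus strand, with a pair of matches beginning at bases 1 and 12 of the RefSeq transcript. Of the GENCODE Cish transcripts compared, Cish-204 and Cish-203 start 51 and 253 bases downstream of that RefSeq start site and Cish-201 starts upstream of it (at -633), so the matches lie before the start of some transcripts and after the start of another.
Socs3: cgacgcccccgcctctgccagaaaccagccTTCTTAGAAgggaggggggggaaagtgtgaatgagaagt
Cish: TTCCTGGAAagTTCTTGGAA

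The libraries carried macrophage transcripts. All 8 macrophage markers averaged at least 1 FPKM (fragments per kilobase of gene length, scaled to a common library size), led by Lyz2, which encodes lysozyme, at 5567 ± 139 FPKM in rmMETRNL libraries and 5460 ± 382 FPKM in vehicle libraries, and Cd68 at 1359 ± 28.4 and 1446 ± 48.7 FPKM in the same order (mean ± SD, n = 3 here and below). The summed macrophage markers ranged from 7146 to 7364 FPKM in rmMETRNL libraries and from 6907 to 7575 FPKM in vehicle libraries. A protocol text names retinas, so retina markers were also looked at. Of the other lists, 2 of 5 B cell markers, 3 of 5 mast cell markers, 4 of 6 fibroblast or mesothelial markers and 1 of 5 dendritic cell markers (Ccr7, which activated macrophages may also express) averaged at least 1 FPKM. Leading these were Ccr7 at a mean of 27.95 FPKM over all libraries, the mast cell genes Tpsb2 at 6.85 and Cma1 at 3.97 FPKM, the fibroblast gene Dcn at 4.29 FPKM with the mesothelial gene Krt19 at 2.13 FPKM, and the B cell genes Cd79a at 2.67 and Cd79b at 2.21 FPKM. The second dendritic cell marker, Zbtb46, averaged 0.764 FPKM. None of 6 T cell markers (led by Lck and Cd4), 5 NK cell markers (Gzma and Klre1), 6 neutrophil markers (Cxcr2 and Ly6g) and the retina markers (led by Pde6b and Gnat1) averaged over 0.878 FPKM. Between 13235001 and 18145733 reads (or read pairs) lay behind each library. The gene Metrnl itself stood at 149 ± 4.87 FPKM with rmMETRNL and 145 ± 6.41 FPKM with vehicle (adjusted p = 0.739 in limma).

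Across the 9 genes the picture was split. Il10, Socs3, Stat3 and Il10ra were higher in each rmMETRNL library than in any vehicle library, Socs1 was lower in each, and Jak1, Tyk2, Il10rb and Cish overlapped between the groups. The separated differences were small, between 1.08-fold and 1.26-fold upward and 0.865-fold for Socs1, as ratios of FPKM + 1. Adding 1 shrinks the change of a gene as low as Socs1. Its log2 fold change was -0.21 on this scale and -0.31 with 0.01 added in place of 1. Complete separation upward was seen in 4 of the 9 genes and in 10.9% of the 9867 genes tested, and complete separation downward in 1 of the 9 and in 10.6% of the genes tested. The 9 genes were chosen with earlier results of these data known, so these counts are a description.

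None of the 9 genes passed the test across all genes. Limma on log2(FPKM + 1) called 0 of 9 genes and 0 of 9867 genes at an adjusted p of 0.05 (0% of the genes tested; the lowest adjusted p was 0.103 over all genes and 0.189 over the 9). At an unadjusted p under 0.05 limma listed 4 of the 9, Il10, Stat3, Socs3 and Il10ra, all higher with rmMETRNL, and 1448 of all genes tested (14.7%), of which 744 were higher (7.54% of the genes tested) and 704 lower (7.13%). Voom on reads recovered from the same table called 61 genes (0.618%), 40 of them higher with rmMETRNL (0.405%), and 0 of the 9. The log2 fold change was above 0 in 5 of the 9 genes and in 48.4% of the genes tested, and its median was 0.10 over the 9 and -0.0056 over all genes tested.

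**Figure D1:**
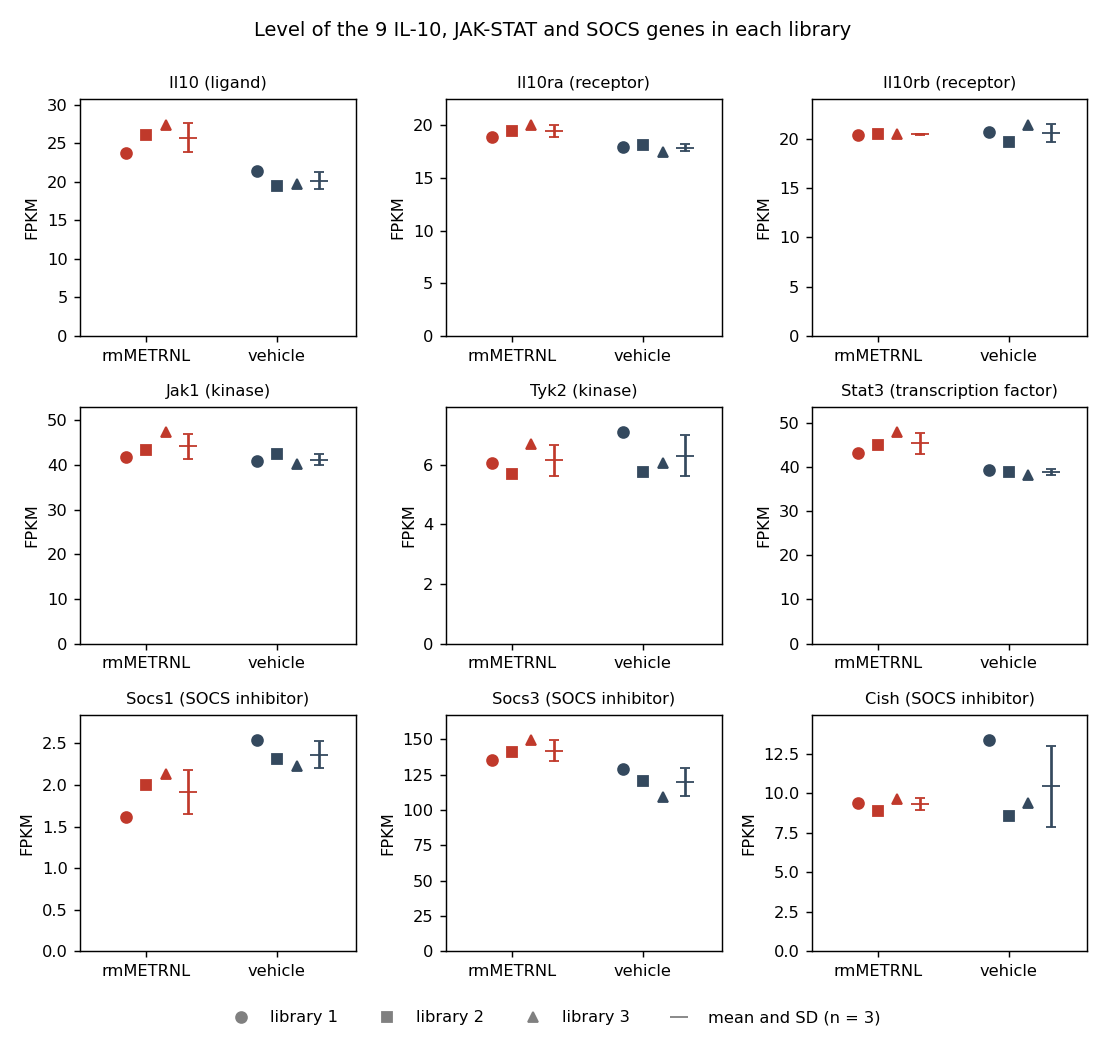
FPKM of each of the 9 genes in each library, with rmMETRNL libraries in red on the left and vehicle libraries in blue on the right of each panel; symbols give the library number, bars the mean and SD of 3 libraries, and each axis starts at 0. The rmMETRNL symbols lie wholly above the vehicle symbols for Il10, Il10ra, Stat3 and Socs3 and wholly below them for Socs1.

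The ligand gene Il10 (ENSMUSG00000016529, chromosome 1, 131019845 to 131024974, plus strand, GRCm38) showed the widest upward difference of the 9. It had 23.8, 26.0 and 27.4 FPKM in rmMETRNL libraries 1, 2 and 3, and 21.4, 19.4 and 19.7 FPKM in vehicle libraries 1, 2 and 3. The groups did not overlap, with vehicle library 1 and rmMETRNL library 1 nearest to each other. The means were 25.7 ± 1.85 FPKM with rmMETRNL and 20.2 ± 1.09 FPKM with vehicle. The log2 fold change was 0.34 (SE 0.07, 95% interval 0.17 to 0.50, adjusted p = 0.189 in limma), or 1.26-fold, and 268 of the 9867 genes tested (2.72%) had a larger one. Behind these values stood 484, 535 and 533 reads in rmMETRNL libraries and 425, 340 and 469 in vehicle libraries. In voom the log2 fold change was also 0.34 (adjusted p = 0.0888). Leaving out any 1 library gave 0.29 to 0.39. Bulk RNA cannot tell more cells that express a gene from more RNA per cell. B cells can also make IL-10. Their 5 markers summed to 6.05 to 6.57 FPKM in rmMETRNL libraries and 5.07 to 6.03 FPKM in vehicle libraries. These ranges did not overlap, though they came close, and none of the 5 markers was at 0 throughout. The part of B cells in the Il10 values was not tested.

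The receptor chains differed from each other. Il10ra (ENSMUSG00000032089, chromosome 9, 45253837 to 45269149, minus strand), the ligand-binding chain, had 18.9, 19.5 and 20.1 FPKM in rmMETRNL libraries 1, 2 and 3 and 18.0, 18.1 and 17.5 FPKM in vehicle libraries 1, 2 and 3. These groups did not overlap, but they lay close together. Its log2 fold change was 0.12 (SE 0.05, 95% interval 0.01 to 0.23, adjusted p = 0.325 in limma). Il10rb (ENSMUSG00000022969, chromosome 16, 91406164 to 91425834, plus strand), the shared chain, had 20.4, 20.5 and 20.5 FPKM in rmMETRNL libraries and 20.7, 19.6 and 21.4 FPKM in vehicle libraries. The rmMETRNL values fell inside the vehicle range. Its log2 fold change was -0.0095 (95% interval -0.13 to 0.11, adjusted p = 0.949 in limma), so a change beyond 1.08-fold up or 0.917-fold down lay outside the interval. Without vehicle library 3 it was 0.02. Il10rb shares 14.9% of its exon bases with Gm21970, a gene on the same strand that was listed at 0 in all libraries, so its level is less sure. Cish and Tyk2 share 11.5% and 8.07% of theirs with genes on the opposite strand, also listed at 0 in all libraries, and the same limit holds for them.

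Expressed within each library, Il10 stood at 1.17, 1.27 and 1.34 times the FPKM of Il10rb in rmMETRNL libraries 1, 2 and 3, and at 1.03, 0.988 and 0.917 times in vehicle libraries 1, 2 and 3. The ratio of Il10 to Il10ra was 1.32 ± 0.0564 with rmMETRNL and 1.13 ± 0.0597 with vehicle. Neither pair of groups overlapped. These ratios need no scaling between libraries.

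The kinase genes were less divided by treatment. Jak1 (ENSMUSG00000028530, chromosome 4, 101152367 to 101265282, minus strand) had 41.8, 43.4 and 47.3 FPKM in rmMETRNL libraries and 40.8, 42.5 and 40.1 FPKM in vehicle libraries. Vehicle library 2 lay above rmMETRNL library 1, so the groups overlapped. Jak1 had a log2 fold change of 0.10 (95% interval -0.04 to 0.24, adjusted p = 0.481 in limma) and 0.05 without rmMETRNL library 3, the highest of the 6. Tyk2 (ENSMUSG00000032175, chromosome 9, 21104068 to 21131243, minus strand) had 6.07, 5.68 and 6.71 FPKM in rmMETRNL libraries and 7.09, 5.78 and 6.07 FPKM in vehicle libraries. The highest and the second-lowest value both came from the vehicle group. Its log2 fold change of -0.03 (95% interval -0.24 to 0.18, adjusted p = 0.910 in limma) was 0.04 without vehicle library 1 and 0.02 without rmMETRNL library 2.

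Stat3 (ENSMUSG00000004040, chromosome 11, 100885098 to 100939540, minus strand), the transcription factor of this pathway, had 43.1, 45.1 and 47.9 FPKM in rmMETRNL libraries and 39.4, 38.9 and 38.1 FPKM in vehicle libraries. The vehicle libraries lay close together, with an SD of 0.650 FPKM, and every rmMETRNL library lay above them. The log2 fold change was 0.22 (SE 0.05, 95% interval 0.10 to 0.34, adjusted p = 0.219 in limma), or 1.16-fold. Voom gave 0.21 (adjusted p = 0.0809). Stat3 rests on 4951 to 6765 reads per library.

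Stat3 and Jak1 have long gene models, and rmMETRNL library 3 favoured long genes. Across genes, the correlation of that library's deviation from the gene means with log2 gene length was 0.203, where the other 5 libraries lay between -0.140 and 0.0534. With each library's length trend removed, a choice made after seeing the data, the log2 fold change was 0.19 for Stat3, 0.08 for Jak1, 0.38 for Il10, 0.27 for Socs3 and 0.13 for Il10ra. These 4 genes other than Jak1 still had no overlap between the groups. Without rmMETRNL library 3, Stat3 stood at 0.18.

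The 3 SOCS-family genes lay on both sides of 0. Socs3 (ENSMUSG00000053113, chromosome 11, 117966079 to 117970047, minus strand) is the STAT3 target whose motif is printed above. It had 135, 141 and 149 FPKM in rmMETRNL libraries and 129, 120.5 and 109 FPKM in vehicle libraries. The groups did not overlap, although vehicle libraries 1 and 3 differed by more than rmMETRNL library 1 and vehicle library 1 did. The log2 fold change was 0.25 (SE 0.07, 95% interval 0.08 to 0.42, adjusted p = 0.247 in limma), or 1.19-fold, and voom gave 0.24 (adjusted p = 0.102). Leaving out vehicle library 3 gave 0.18, the lowest such value, and leaving out vehicle library 1 gave 0.30, the highest. The ratio of Socs3 to Stat3 was 3.13, 3.13 and 3.12 in rmMETRNL libraries 1, 2 and 3 and 3.27, 3.10 and 2.87 in vehicle libraries 1, 2 and 3. It was therefore nearly constant across the rmMETRNL libraries and lay inside the vehicle range.

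Socs1 (ENSMUSG00000038037, chromosome 16, 10782240 to 10785536, minus strand), an inhibitor of interferon receptor signalling, was the rarest of the 9 transcripts and lay in the opposite direction. It had 1.61, 1.99 and 2.13 FPKM in rmMETRNL libraries and 2.54, 2.32 and 2.23 FPKM in vehicle libraries. Every rmMETRNL value was below every vehicle value. Its log2 fold change was -0.21 (SE 0.10, 95% interval -0.44 to 0.02, adjusted p = 0.369 in limma), and -0.32 in voom, which adds no pseudocount of 1 FPKM. These values rest on 73, 91 and 92 reads with rmMETRNL and 112, 90 and 118 reads with vehicle. The separation was lost when the libraries were rescaled to TPM, which gives all libraries the same sum, and when the length trend was removed, and the log2 fold change without rmMETRNL library 1 was -0.13.

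Cish (ENSMUSG00000032578, chromosome 9, 107296026 to 107302784, plus strand), the SOCS-family gene tied to STAT5, had 9.39, 8.88 and 9.66 FPKM in rmMETRNL libraries and 13.4, 8.59 and 9.36 FPKM in vehicle libraries. Vehicle library 1 stood apart from the other 5. With all libraries the log2 fold change was -0.13 (95% interval -0.48 to 0.22, adjusted p = 0.733 in limma). Without vehicle library 1 it was 0.05, so its sign rests on that library. The same library was also the highest vehicle library for Il10, Tyk2, Stat3, Socs1 and Socs3.

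**Figure D2:**
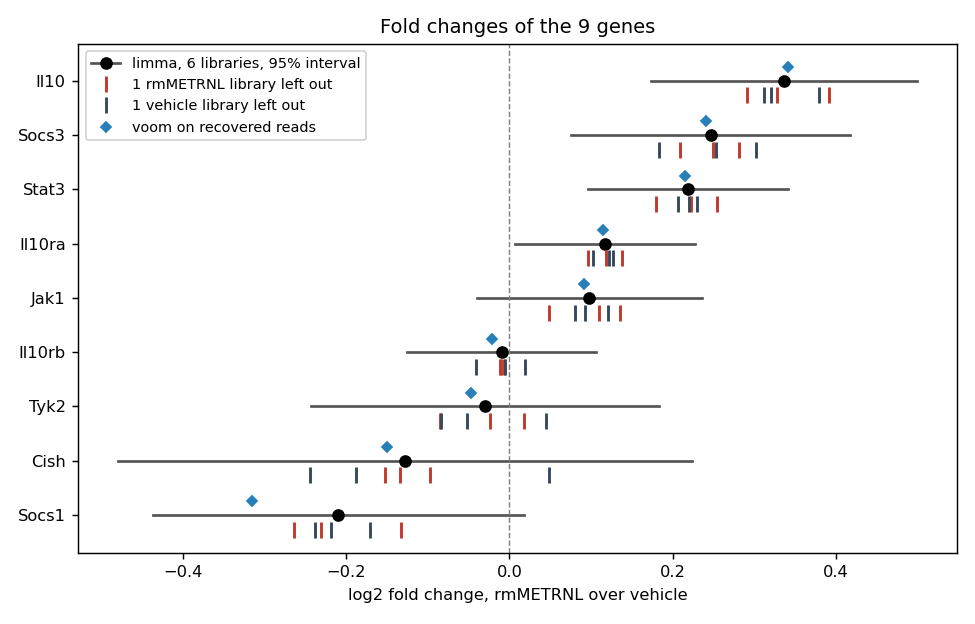
Log2 fold change of rmMETRNL over vehicle for each of the 9 genes: black points and lines are limma on log2(FPKM + 1) with its 95% interval, ticks are the same fit with 1 rmMETRNL library (red) or 1 vehicle library (blue) left out, and diamonds are voom on recovered reads. The ticks of Il10, Socs3, Stat3, Il10ra and Jak1 all lie above 0 and those of Socs1 below it, while those of Il10rb, Tyk2 and Cish lie on both sides.

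Within the rmMETRNL group, library 1 was the lowest of the 3 for 7 of the 9 genes, and for 33.7% of the genes tested. Library 3 was the highest for 8 of the 9, Socs1 included, and for 35.9% of the genes tested. In the vehicle group, library 1 was the highest for 6 of the 9 (36.5% of the genes tested) and library 3 the lowest for 5 (32.6%). The 9 values of a library share its RNA and are not independent, and these counts are a description.

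The order of the levels depended on the gene length used. By the deposited FPKM, which divides by the length of all annotated exons, Socs3 was highest in every library at 142 ± 7.24 FPKM with rmMETRNL and 119.6 ± 9.92 FPKM with vehicle, and Socs1 was lowest at 1.91 ± 0.268 and 2.36 ± 0.162 FPKM in the same order. Stat3 stood above Jak1 in 3 of 3 rmMETRNL libraries, with overlapping ranges, and below it in 3 of 3 vehicle libraries. Il10 stood above Il10rb in 3 of 3 rmMETRNL libraries and in 1 of 3 vehicle libraries. Il10rb, Il10ra, Cish, Tyk2 and Socs1 followed in that order in every library, and the ranges of neighbours did not overlap within a group.

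The annotated exons, taken over all transcripts of a gene, span 2.25 times the main coding transcript in Cish, 2.11 times in Stat3 and 2.06 times in Il10rb. They span 1.47 times the main coding transcript in Jak1 and 1.42 times in Tyk2. They span 1.13 times in Socs3 and equal it in Il10, Il10ra and Socs1. Per kilobase of the main coding transcript, Stat3 stood at 95.7 ± 5.04 with rmMETRNL and 81.9 ± 1.37 with vehicle, above Jak1 at 65.0 ± 4.17 and 60.6 ± 1.78 in all 6 libraries. Il10rb, at 42.1 ± 0.140 and 42.4 ± 1.85, then stood above Il10 in all 6. Cish, at 20.98 ± 0.891 with rmMETRNL and 23.5 ± 5.79 with vehicle, came above Il10ra. A gene has the same length in all libraries, so the length cancels in a ratio of FPKM. It acts on a fold change of FPKM + 1 only through the added 1.

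**Figure D3:**
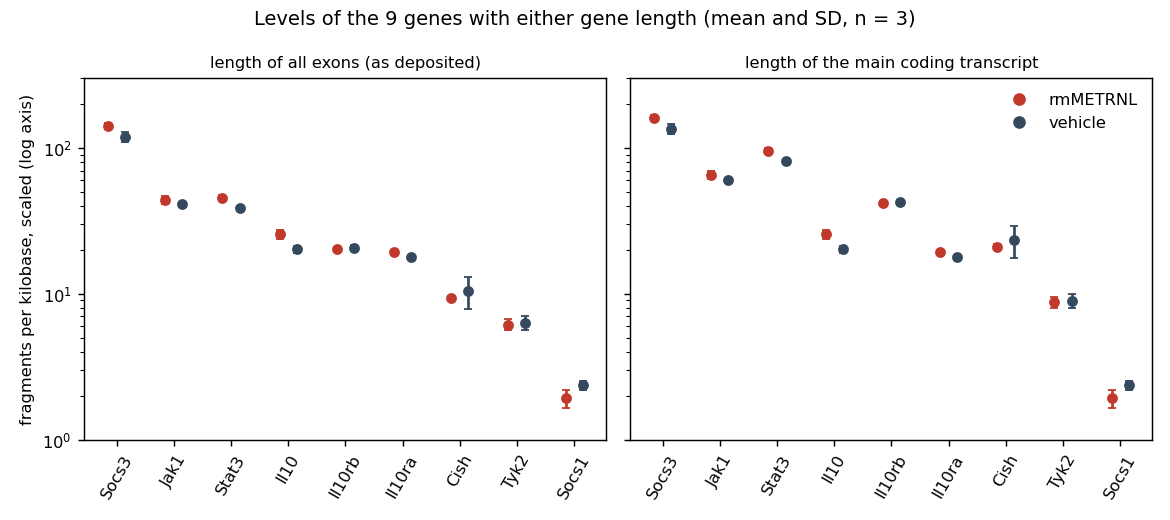
Mean level with SD (n = 3) of each of the 9 genes on a log axis, with rmMETRNL in red left of vehicle in blue, per kilobase of all annotated exons as deposited (left panel) and per kilobase of the main coding transcript (right panel). Socs3 is highest and Socs1 lowest in both, while Stat3, Il10rb and Cish move up in the right panel.

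Genes around the pathway were described from 9 lists. Limma called 0 of their genes in either direction at an adjusted p of 0.05, and voom called 1, Id2. All 9 members above had been tested, whereas several of these lists lost genes to the filter on low levels. The counts of genes with groups apart, given for each list, stand beside 10.9% upward and 10.6% downward over all genes tested, and the medians moved with single libraries or settings as given. Of 13 other IL-10 family and class II receptor genes, 5 were tested, with a median log2 fold change of 0.08 (0.06 to 0.12 over the alternatives) and groups apart upward in 2 (and 0 downward). Ifngr1, which encodes the ligand-binding chain of the interferon-gamma receptor, had 16.3, 15.2 and 16.6 FPKM with rmMETRNL and 12.8, 14.5 and 13.9 FPKM with vehicle (log2 fold change 0.21, adjusted p = 0.262 in limma). Il20rb, a receptor chain for other IL-10 family cytokines, averaged 16.7 ± 0.166 and 15.01 ± 0.830 FPKM in the same order. Ifnar2, a chain of the type I interferon receptor, averaged 25.4 ± 1.17 FPKM with rmMETRNL and 27.2 ± 1.45 FPKM with vehicle, and overlapped. Ifnar2 shares 9.46% of its exon bases with Gm21970 on the same strand, so its level is less sure. The cytokine genes Il19, Il20, Il22 and Il24 stayed under 1 FPKM in every library.

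Of 14 tested gp130 and class I cytokine receptor genes, 7 had a positive and 7 a negative log2 fold change, the median was 0.0015 (-0.015 to 0.06 over the alternatives), and 0 had groups apart. Csf2ra, which encodes the ligand-binding chain of the GM-CSF receptor, averaged 189 ± 16.9 FPKM with rmMETRNL and 221 ± 12.1 FPKM with vehicle (log2 fold change -0.23, adjusted p = 0.278 in limma). Il13ra1 averaged 24.7 ± 1.87 and 22.7 ± 1.54 FPKM and Il4ra 37.2 ± 1.15 and 39.6 ± 3.17 FPKM in the same order. Both encode chains that bind IL-13 or IL-4. Il4ra shares 9.51% of its exon bases with a gene on the other strand.

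Among the other JAK kinases and STAT factors (7 tested, median 0.04, but 0.09 without rmMETRNL library 1 or with a minimum mean of 5 FPKM and 0.0012 without rmMETRNL library 3), both STAT5 genes were apart upward and Jak3 was apart downward. Stat5a had 10.7, 9.67 and 10.4 FPKM with rmMETRNL and 9.50, 8.83 and 9.07 FPKM with vehicle (log2 fold change 0.15, adjusted p = 0.320 in limma), and shares an edge of its exons with Stat3 on the other strand, 0.756% of the exon bases of Stat3. Stat5b averaged 12.0 ± 0.338 FPKM with rmMETRNL and 10.8 ± 0.352 FPKM with vehicle. Jak3, a kinase of receptors with the common gamma chain, averaged 2.32 ± 0.244 and 2.84 ± 0.189 FPKM in the same order. Jak3 shares 7.55% of its exon bases with another gene on the same strand.

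The 5 other SOCS genes were all tested, with a median of 0.07 (0.04 to 0.13 over the alternatives). Socs7 was apart upward, at 6.78 ± 0.271 FPKM with rmMETRNL and 6.02 ± 0.201 FPKM with vehicle (adjusted p = 0.314 in limma). Socs6 (3.31 ± 0.425 and 3.03 ± 0.155 FPKM) and Socs4 (7.31 ± 0.884 and 6.88 ± 0.232 FPKM) overlapped. Of 12 tested inhibitors of other kinds, 0 had groups apart and the median was 0.02 (0.01 to 0.04 over the alternatives). The phosphatase genes Ptpn11 (14.7 ± 1.05 and 13.7 ± 0.829 FPKM), Ptprc (20.2 ± 0.992 and 19.2 ± 0.715 FPKM) and Ptpn2 (20.2 ± 0.920 and 19.3 ± 1.34 FPKM) had the smallest p of that list.

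Genes known to be induced by IL-10 and STAT3 in macrophages, other than Socs3, lay on both sides of 0. Of 14 tested, 6 were positive and 8 negative, and the groups were apart upward in 4 and downward in 3. The median was -0.02, but quantile normalization turned it to 0.0096, leaving out vehicle library 1 to 0.0084, and a minimum mean of 5 FPKM gave -0.05. Dusp1, which encodes a phosphatase of MAP kinases, had 196, 209 and 221 FPKM with rmMETRNL and 180, 170 and 183 FPKM with vehicle (log2 fold change 0.23, adjusted p = 0.231 in limma). Ddit4, an inhibitor of mTORC1 signalling, averaged 87.6 ± 2.38 FPKM with rmMETRNL and 77.6 ± 4.63 FPKM with vehicle. Nfil3, a transcriptional repressor, was lower, at 93.6 ± 5.66 FPKM with rmMETRNL and 105 ± 4.85 FPKM with vehicle. Dusp1 and Ddit4 also respond to many other signals.

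Factors and kinases known to act on Il10 transcription (15 of 18 tested, median 0.04, 0.01 to 0.08 over the alternatives) were apart upward in 4 and downward in 1. Map3k8, a kinase that links Toll-like receptors to ERK, had 12.0, 12.0 and 13.2 FPKM with rmMETRNL and 10.1, 10.9 and 9.97 FPKM with vehicle (log2 fold change 0.25, adjusted p = 0.231 in limma). Irf4 averaged 2.59 ± 0.156 and 1.97 ± 0.250 FPKM in the same order. Rps6ka4, which encodes the kinase MSK2, had 38.4, 36.0 and 35.5 FPKM with rmMETRNL and 45.9, 41.6 and 43.1 FPKM with vehicle (log2 fold change -0.24, adjusted p = 0.216 in limma), and shares 19.8% of its exon bases with another gene on the same strand.

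STAT5-linked cytokines and targets (9 of 10 tested) were positive in 6 and negative in 3, and apart upward in 4 and downward in 0. Their median was 0.10, but 0.03 without vehicle library 3 or without rmMETRNL library 3 and 0.15 with a minimum mean of 5 FPKM. Csf2, the gene of GM-CSF, had 38.6, 41.3 and 36.7 FPKM with rmMETRNL and 28.9, 21.5 and 30.96 FPKM with vehicle (log2 fold change 0.52, adjusted p = 0.233 in limma), and shares 12% of its exon bases with a gene on the other strand. Id2, an inhibitor of DNA-binding factors, averaged 301 ± 14.5 FPKM with rmMETRNL and 250.8 ± 11.7 FPKM with vehicle (adjusted p = 0.189 in limma and 0.0493 in voom). Bcl2l1, a survival gene, averaged 29.5 ± 1.61 FPKM with rmMETRNL and 26.4 ± 0.533 FPKM with vehicle. Pim3 was apart upward too. Osm, Pim1, Pim2, Socs2 and Bcl6 overlapped. The log2 fold change was -0.0096 for Pim1, -0.06 for Socs2 and -0.0050 for Bcl6. Pim1 shares 14.5% of its exon bases with a gene on the other strand. Cish, also tied to STAT5, overlapped as well, and STAT5 activity was not tested.

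Interferon targets spanned a wide range of levels. Of 17, 7 were tested, with a median of 0.11 (0.07 to 0.14 over the alternatives), and 10 averaged under 1 FPKM. All of those 10 were under 1 FPKM in every library, Cxcl9, Ifit1, Ifit2, Ifit3 and Mx1 among them, and Ifnb1 was listed at 0 in all 6. Of the 10, Gbp5 was apart upward, at 0.552 ± 0.0589 FPKM with rmMETRNL and 0.339 ± 0.0775 FPKM with vehicle. Of the tested genes outside the naming rule, Isg15, a ubiquitin-like protein gene, averaged 27.5 ± 5.12 FPKM with rmMETRNL and 25.1 ± 0.763 FPKM with vehicle, and the transcription factor gene Irf1 5.64 ± 0.621 and 5.43 ± 0.728 FPKM in the same order. Irf7 was apart downward, at 1.24 ± 0.242 FPKM with rmMETRNL and 1.78 ± 0.199 FPKM with vehicle, and Cd274, the gene of PD-L1, was apart upward, at 199 ± 15.7 and 178 ± 8.19 FPKM in the same order (adjusted p = 0.2998 for Irf7 and 0.337 for Cd274 in limma). Cd274 shares 14.1% of its exon bases with a gene on the other strand. Gbp2 overlapped, at 2.88 ± 0.232 FPKM with rmMETRNL and 2.12 ± 0.639 FPKM with vehicle.

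**Figure D4:**
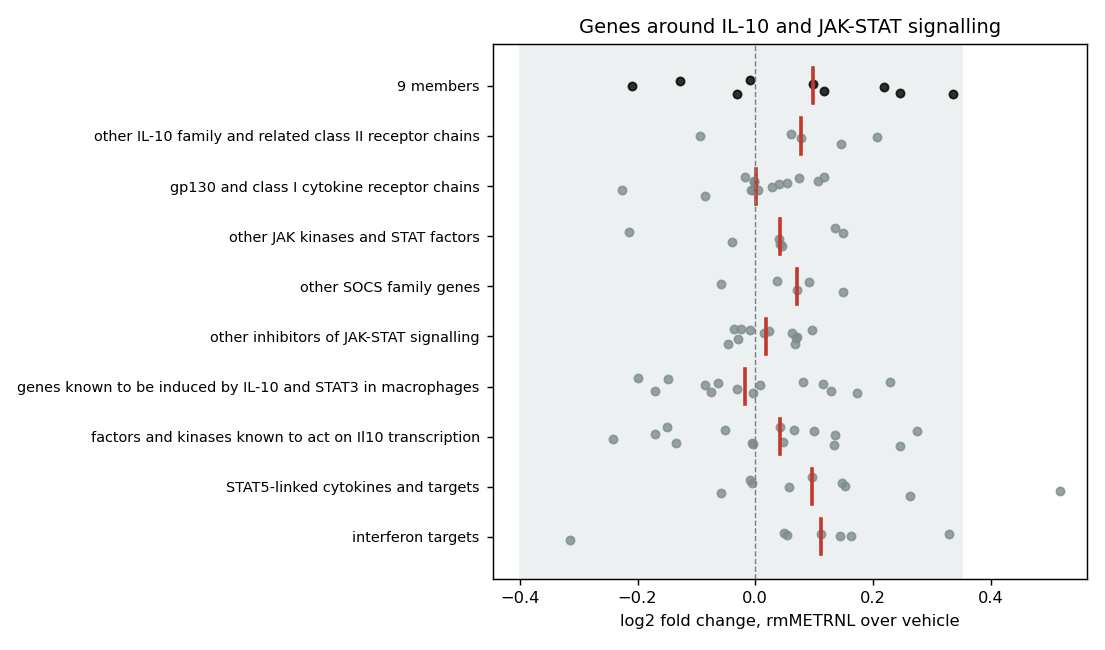
Log2 fold change of rmMETRNL over vehicle (limma on log2(FPKM + 1)) for the 9 members, in black, and for the tested genes of 9 lists around the pathway, in grey; red bars are medians, the shaded band holds the middle 95% of the 9867 genes tested (-0.40 to 0.35), and vertical scatter has no meaning. Most points lie inside the band, and the exception on the right is Csf2 at 0.52.

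The genes whose profile over the 6 libraries was most like that of Il10 were Eaf1, Edn1, Bach1, F3 and Slc25a44. Likeness was the root mean square difference of log2(FPKM + 1), each gene centred on its own mean. It was taken over 4973 genes that averaged 5 FPKM or more, leaving out pseudogenes and genes with only a predicted-model or clone name. The difference was 0.03 for Eaf1, a cofactor of transcription elongation, 0.04 for Edn1, the gene of endothelin-1, and 0.04 for the transcriptional repressor gene Bach1. It was 0.04 for F3, the gene of tissue factor, and 0.05 for the mitochondrial carrier gene Slc25a44, with a median of 0.20 over the genes compared. Among the members, Socs3 and Stat3 were nearest to Il10, at 0.07 each, followed by Il10ra at 0.12 and Jak1 at 0.13. Cish and Socs1 were farthest, at 0.28 and 0.27. The measure covers all 6 libraries and so includes the difference between the groups. The order of the members therefore partly restates the directions given above. F3 had 703, 770 and 808 FPKM with rmMETRNL and 604, 607 and 606 FPKM with vehicle (log2 fold change 0.32, adjusted p = 0.172 in limma and 0.0168 in voom). F3 and the other nearest genes were picked for their likeness to Il10 in these same libraries. A higher level with rmMETRNL therefore follows from the choice.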

How the data were processed

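Total RNA libraries were made with an Illumina TruSeq kit, per the labels' protocols. The authors deposited 1 table of FPKM values, 54532 genes by 6 libraries, with gene lengths, per the file headers. GRCm38 and mm10 are named in the submitters' processing notes; the sources used here name no aligner, counter or strand setting, so reads of genes overlapping on opposite strands cannot be told apart. Gene coordinates equalled GENCODE M21 for 98.3% of 54409 matched genes. Dividing FPKM times length by the smallest step in its library gave whole reads for 100% of values (tolerance 0.05 reads). Median-of-ratios factors of the deposited values were identical in all libraries, 1.00398.

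The 9867 genes averaging 1 FPKM or more entered limma 3.58.1 (R 4.3.3) on log2(FPKM + 1), with the mean-variance trend, two-sided, with Benjamini-Hochberg adjustment over all genes tested and a threshold of 0.05. This scale understates the change of low genes. Alternatives were voom on the recovered reads, other pseudocounts, filters and scalings, limma with array weights or with no trend, a replicate block, leaving out each library and, chosen after seeing the data, length-trend removal and robust variance estimation. Named are the 9 members, the 3 genes with the smallest p in each list, the 5 nearest to Il10, Metrnl and the 2 most abundant markers of each list. Some further genes of the lists are named as well. Members and lists were chosen with earlier results of these data known. Promoter sequences are from RefSeq. Some genes of these lists are not reported here.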

Additional observations from a re-analysis of the deposited data

How the results depend on the processing

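The count of 0 called among the 9 genes held in all 19 alternatives at the threshold of 0.05, and in limma at an adjusted p of 0.1. In voom, Il10 (adjusted p = 0.0888) and Stat3 (adjusted p = 0.0809) were under 0.1. The count over all genes, 0 in limma, was 5 with no filter on low values, 1 after rescaling to TPM, 1 with array weights, 61 in voom and 1 with robust variance estimation, and 0 in each fit without 1 library; the cause was not tested. Separation of the groups was seen in 5 of the 9 genes, in 4 after rescaling to TPM, length-trend removal or a minimum mean of 5 FPKM (which drops Socs1), and in 5 to 7 without 1 library. The share of all tested genes was 21.5% with all libraries, 20.6%, 21.7% and 26.7% under those 3 settings, and 29.6% to 33.9% without 1 library (30.9% without vehicle library 2, where the count was 7), since fewer libraries separate more easily. Il10, Il10ra, Stat3, Socs3, Jak1 and Socs1 kept their direction in every alternative run on them. Il10rb turned to 0.0109 after rescaling to TPM and 0.0013 with quantile normalization, and ranged from -0.0413 to 0.0185 without 1 library. Leaving out 1 library gave -0.0854 to 0.045 for Tyk2 (0.0178 without rmMETRNL library 2), -0.2436 to 0.0485 for Cish and -0.0138 to 0.1263 for Socs4. Same-numbered libraries did not deviate together (correlations of -0.0212, 0.0074 and -0.0454), and with the replicate number as a block 0 genes were called. Median-of-ratios scaling changed almost nothing, as the deposited values already had equal factors. For a gene of 1 kb, 10 reads make 0.549 to 0.748 FPKM. Of the 9 genes Socs1 rests on the fewest reads, and Cish has the largest standard error (0.15).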

Other observations

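Cd163, the haemoglobin scavenger receptor gene that IL-10 is known to induce in macrophages, fell under the minimum mean and was picked out after its values were seen. It had 0.565, 0.478 and 0.605 FPKM in rmMETRNL libraries 1, 2 and 3 (48, 41 and 49 reads) and 0.242, 0.233 and 0.241 FPKM in vehicle libraries 1, 2 and 3 (20, 17 and 24 reads). The groups did not overlap. With no filter on low values, 6.89% of 24868 genes were apart upward and 6.16% downward. Osmr and Gbp5, other listed genes under the minimum mean, were apart upward as well. Among the 14 tested genes of the list that holds Cd163, 4 were apart upward and 3 downward. Without the filter, the log2 fold change of Cd163 on the log2(FPKM + 1) scale was 0.32, with an adjusted p of 0.345 in limma. Maf, a transcription factor gene known to act on Il10, was also under the minimum and overlapped, at 148, 127 and 115 reads with rmMETRNL and 98, 87 and 152 reads with vehicle.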
